A study of Mus musculus with 12 samples.

Results

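The cytosolic ribosomal protein genes encode the protein part of the ribosomes that translate nuclear-encoded mRNAs. They were taken by symbol (Rpl and Rps with a number, Rplp0 to Rplp2, and Rpsa), without pseudogenes and ribosomal S6 kinases. The rule found 83 genes of 45563 symbols, of which 51 encode proteins of the 60S subunit (the 3 stalk genes among them) and 32 proteins of the 40S subunit. Of these, 80 had a mean of at least 0.1 FPKM over all libraries and were tested. The other 3, Rpl3l, Rpl10l and Rpl39l, were below that level. FPKM is the deposited unit; its divisor for each gene did not follow gene length in these files, so an FPKM value compares libraries for 1 gene, not genes with each other.

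Bulk RNAseq was performed on oligodendrocyte precursor cells (OPCs), the dividing glia that give rise to myelinating oligodendrocytes, isolated from cortices of C57BL/6 pups (the WT mice are given as C57BL/6J in the methods) aged 2 to 5 days by magnetic selection for PDGFRα, a surface receptor of OPCs. WT cells and cells of germline TNFR2-/- mice, which lack a TNF receptor in every cell of the body, were compared after 3 days in vitro. Stimulated cells (St) received TNF, IFNγ and IL1β at 25 ng/mL each for 3 h, and non-stimulated cells (NS) received the vehicle. The groups were therefore WT NS, WT St, TNFR2-/- NS and TNFR2-/- St, with 3 libraries each. Libraries are numbered 2, 3 and 4 for WT and 2, 4 and 5 for TNFR2-/- in the sample titles. The titles do not say that the NS and St libraries of a number come from the same culture. A number within a genotype is called a culture below because its NS and St libraries varied together. Nothing states that each number is a separate litter, so p-values measure the spread between these libraries.

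The targeted gene did not follow its label. Tnfrsf1b, which encodes TNFR2, had 12 to 24 read pairs in the WT NS libraries and 61 to 145 in WT St, against 213 to 346 in the libraries labelled TNFR2-/- NS and 282 to 356 in those labelled TNFR2-/- St. A count over the whole gene cannot show whether the disrupted part is missing, so every genotype below is the genotype on the label. Library totals lay between 26886878 and 30335265 read pairs. The OPC markers Pdgfra, Cspg4, Olig1, Olig2, Sox10 and Ptprz1 were present in all libraries, with a sum of 10730 to 13240 FPKM in NS and 8161 to 9157 FPKM in St. Such sums weight each marker by its own divisor and are compared between libraries only. Pdgfra, the gene of the receptor used for selection, was at 93.4 to 123 FPKM in WT St and 57.02 to 80.7 FPKM in TNFR2-/- St (-0.60 ± 0.15 on the log2 scale, limma adjusted p = 0.0489). In this comparison 3 of the 6 OPC markers were higher and 3 lower, with a median of -0.00, and Pdgfra was the only 1 called. The 6 microglia markers summed to 1.7 to 4.54 FPKM, with Aif1, C1qa and Cx3cr1 listed at 0 in several libraries. The 5 astrocyte markers Aqp4, Gfap, Aldh1l1, Gja1 and Slc1a2 summed to 399 to 632 FPKM in WT, and to 773 to 1007 FPKM in TNFR2-/- cultures 2 and 4. In TNFR2-/- culture 5 they summed to 1795 FPKM (NS) and 1961 FPKM (St), with Gfap at 231 and 233 FPKM against 6.23 to 42.5 FPKM elsewhere. Neuron markers summed to 82.9 to 125 FPKM in NS and 474 to 575 FPKM in St of both genotypes. The rise of this sum was mostly that of Tubb3 (41.6 to 76.9 FPKM in NS, 417 to 539 FPKM in St). Snap25 went the other way (11.5 to 22.9 FPKM in NS, 6.57 to 9.44 FPKM in St). Of the 5 neuron markers, 3 rose and 2 fell with stimulation in WT, and 4 rose and 1 fell in TNFR2-/-. Mature oligodendrocyte markers summed to 493 to 1566 FPKM in WT and 681 to 1296 FPKM in TNFR2-/-, with 0 of 5 called in any comparison. The 5 mural and fibroblast markers summed to 39.8 to 130 FPKM in WT and 16.8 to 40.8 FPKM in TNFR2-/-. Fewer cells of a type and less RNA per cell cannot be told apart in such bulk samples.

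A ribosome joins each of these proteins to rRNA in fixed proportion, and cells make them together. The genes are known for short transcripts that begin with C and a run of pyrimidines, the 5′ terminal oligopyrimidine (TOP) tract, through which mTORC1 controls their translation. When assembly fails, free Rpl5 and Rpl11 bind Mdm2 and stabilise p53.

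Sequence features at the transcript start were more frequent among members than among all genes, although most members lacked each of them. RefSeq start windows (GRCm38.p6) were found for 62 of the 83 genes, and 12 of them (19.4%) began with C followed by at least 4 pyrimidines, against 2.51% of 32851 windows of all genes. The letters CCGGAAG, the core bound by ETS factors, stood on either strand of 37.1% of the members' windows of 300 bases around the start and of 8.86% of all windows. Below are 30 bases around the start, 10 before it and 20 from it on, for a pair of members with such a tract and a pair without. Capitals mark the pyrimidine run that begins at the start. Annotated starts can lie away from the true cap site. The RefSeq start used lay 769 bases from the GENCODE start of the principal transcript for Rps10, 45 bases for Rps6 and 2 bases for Rps21. A missing tract therefore says only that these letters do not begin at the listed base.
Rps21, chr2:180257369-180257398, plus strand: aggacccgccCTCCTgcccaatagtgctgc
Rps6, chr4:86857348-86857377, minus strand: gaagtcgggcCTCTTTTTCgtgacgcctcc
Rpl34, chr3:130730379-130730408, minus strand: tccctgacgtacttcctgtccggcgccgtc
Rps27l, chr9:66946076-66946105, plus strand: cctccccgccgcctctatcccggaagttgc

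The members were among the abundant transcripts of these cells. A mean of at least 1000 read pairs per library was found for 77 of 83 members, up to 40180 for Rpsa, the laminin-binding protein of the 40S subunit. Per length, as read pairs per kilobase of a principal transcript and per 1000000 read pairs of the library, the highest levels were those of Rplp1 (1448), a stalk protein that helps recruit elongation factors, Rpl41 (1001), a very short basic peptide, and Rps15 (899), a protein of the 40S head. These levels depend on the transcript chosen for each gene and are approximate. At the other end, Rpl10l, a testis copy of Rpl10, had 0 read pairs in every library, which allows up to 3 per library. Rpl39l, a testis copy of Rpl39, had 0 or 1 read pairs, and Rpl3l, the copy of Rpl3 used in heart and skeletal muscle, had 0 to 10. Rpl24, a protein of the 60S subunit that bridges to the 40S, was listed with only 14 to 32 read pairs. Its annotated exons overlap those of Gm28037 on the same strand over 71.5% of their length. This overlap is that of GENCODE M21, whereas the study counted reads with an Ensembl annotation. Gm28037 itself was listed with 0 read pairs in every library. Whether the overlap lowered the count of Rpl24 was not tested. Sequence shared with other genes is common here: 74 members shared at least 1 window of 100 bases with another transcript, and for 36 members at least 50% of the windows were shared.

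Ribosomal protein genes took a similar share of every WT library and a smaller one of the stimulated TNFR2-/- libraries. Their summed read pairs were 3.00%, 3.08% and 3.26% of the read pairs on genes in WT NS cultures 2, 3 and 4, and 3.19%, 3.19% and 3.30% in the same cultures after stimulation. In TNFR2-/- cultures 2, 4 and 5 the shares were 3.00%, 3.33% and 2.67% without stimulation and 2.83%, 2.78% and 2.39% with it. Every stimulated TNFR2-/- library lay below every WT library, while the NS groups overlapped. Within cultures, the share rose by 0.183, 0.108 and 0.0352 percentage points in WT and changed by -0.165, -0.549 and -0.279 points in TNFR2-/-. Both subunits moved alike: after stimulation the 60S share was 1.89% ± 0.0352 (SD, 3 WT libraries) against 1.57% ± 0.145 (SD, 3 TNFR2-/- libraries), and the 40S share 1.335% ± 0.029 against 1.099% ± 0.0964. Culture 5, with the highest astrocyte markers, had the lowest share among TNFR2-/- libraries of each condition; the part of such cells, which the PDGFRα selection is meant to remove, was not tested.

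**Figure D1:**
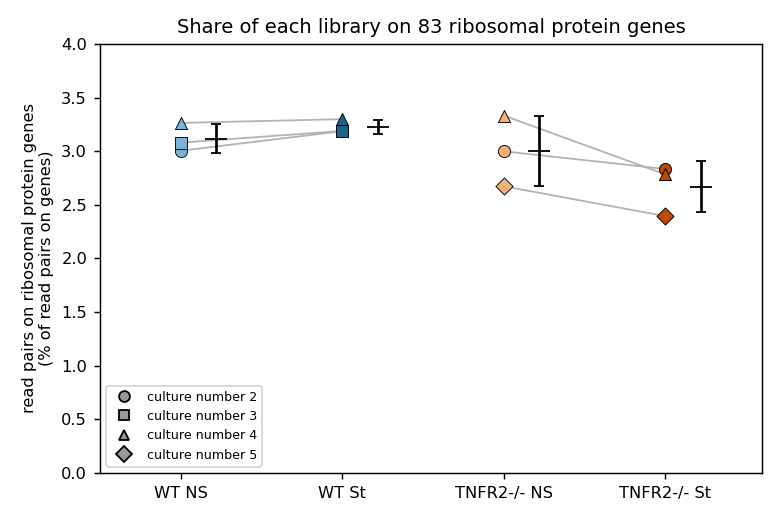
Share of read pairs on the 83 ribosomal protein genes (y axis, % of read pairs on genes) in each of the 12 libraries by group (x axis). Points are libraries, grey lines join the NS and St libraries of a culture number, and bars are mean ± SD (n = 3); the 3 lines of WT rise and the 3 lines of TNFR2-/- fall.

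The comparison of stimulated cells asked how the inflammatory state differed without TNFR2. Ribosomal protein transcripts were lower in TNFR2-/- St than in WT St in nearly every member: 79 of 80 log2 fold changes were negative, with a median of -0.28, against a median of -0.00 and 50.6% negative over all 18081 genes tested. In 75 members every TNFR2-/- St library was lower than every WT St library, a pattern found in 17.3% of all genes. At an adjusted p of at most 0.05 (limma, Benjamini-Hochberg over all genes), 6 members were called lower and 0 higher, against 2.75% and 2.70% of all genes. An unadjusted p below 0.05 was found for 69 members and for 26.7% of all genes. The 6 called members were Rpl34, Rpl6, Rpl22l1, Rps15a, Rps26 and Rps27a.

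Among the 43 tested 60S members outside the stalk and the paralogs, the median was -0.26 and 2 were called, Rpl34 (described on its own below) and Rpl6. Rpl6, a eukaryote-specific protein of the 60S subunit, was at 566, 548 and 559 FPKM in WT St and at 495, 471 and 454 FPKM in TNFR2-/- St. The groups did not overlap, and the difference was -0.24 ± 0.06 (SE) on the log2 scale (limma adjusted p = 0.0486). Rpl5 and Rpl11, which form the 5S rRNA particle and can bind Mdm2, differed by -0.26 ± 0.07 and -0.25 ± 0.09 and were not called (limma adjusted p = 0.0548 and 0.112). Rpl13a, known to leave the ribosome for an IFNγ-dependent block of translation, differed by -0.21 ± 0.10 (limma adjusted p = 0.203).

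The 3 stalk genes stood close together. Rplp0, the scaffold of the stalk, differed by -0.29 ± 0.11 (limma adjusted p = 0.122). Its partners Rplp1 and Rplp2 differed by -0.29 ± 0.11 and -0.32 ± 0.10 (limma adjusted p = 0.113 and 0.0748). None was called, although all TNFR2-/- St libraries were below all WT St libraries for each of them. Rplp1, for example, was at 7706, 7624 and 8380 FPKM in WT St and at 6687, 6851 and 5846 FPKM in TNFR2-/- St.

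All 30 tested 40S members outside the paralogs were lower, without overlap of the groups, and their median was -0.31. Rps15a, a protein of the 40S body, was at 399, 413 and 408 FPKM in WT St and at 326, 337 and 302 FPKM in TNFR2-/- St, a difference of -0.34 ± 0.08 (limma adjusted p = 0.0362). Rps26, which sits at the mRNA exit, was at 2033, 2028 and 2086 FPKM against 1712, 1696 and 1578 FPKM (-0.30 ± 0.08, limma adjusted p = 0.0463). Rps27a, made as a fusion with ubiquitin, was at 294, 297 and 296 FPKM against 250.2, 243 and 239 FPKM (-0.27 ± 0.06, limma adjusted p = 0.0414). For these members the WT St libraries lay close together and the TNFR2-/- St libraries all lay below them. Rps6, the substrate of S6 kinase, differed by -0.32 ± 0.08, just outside the threshold (limma adjusted p = 0.0521). Rps19, mutated in Diamond-Blackfan anaemia, Rps3, at the mRNA entry, and Rpsa differed by -0.35 ± 0.12, -0.23 ± 0.07 and -0.23 ± 0.10 and were not called (limma adjusted p = 0.0918, 0.0688 and 0.166).

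The direction was the same where sequence was little shared: the 13 members with fewer than 10% shared windows were all lower, with a median of -0.30, and of the 36 members with at least 50% shared windows 35 were lower, with a median of -0.26. The 5 members that were not lower without overlap were Rpl23a, Rpl36, Rpl41, Rps4l and Rpl24. Rpl24, at the low count given above, was the member with a positive difference (0.07 ± 0.14), and its TNFR2-/- St libraries all lay above those of WT St, as in 15.4% of all genes. The number of calls was not stable: without WT NS replicate 2 it was 4, without TNFR2-/- NS replicate 4 or 5 it was 26, without TNFR2-/- St replicate 4 it was 3, without WT NS replicate 3 it was 2, and without any of the 7 other libraries it was 1. Without both libraries of TNFR2-/- culture 5, the members' median was -0.20, 79 were still negative and 1 was called. All 5 astrocyte markers were higher in TNFR2-/- St than in WT St, 1 of them called (Slc1a2, 1.01 ± 0.25 on the log2 scale, limma adjusted p = 0.0451), and the sum of the mural and fibroblast markers was lower without overlap (39.8 to 130 FPKM in WT St, 16.8 to 28.2 FPKM in TNFR2-/- St), with 0 of 4 tested called. The largest of these differences was that of Col1a1, a collagen (-1.72 ± 0.47, limma adjusted p = 0.0589). Mitochondrially encoded genes took 4.99% to 5.11% of the read pairs in WT St and 5.415% to 6.05% in TNFR2-/- St. The part of these genes and cells in the difference between the members was not tested.

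**Figure D2:**
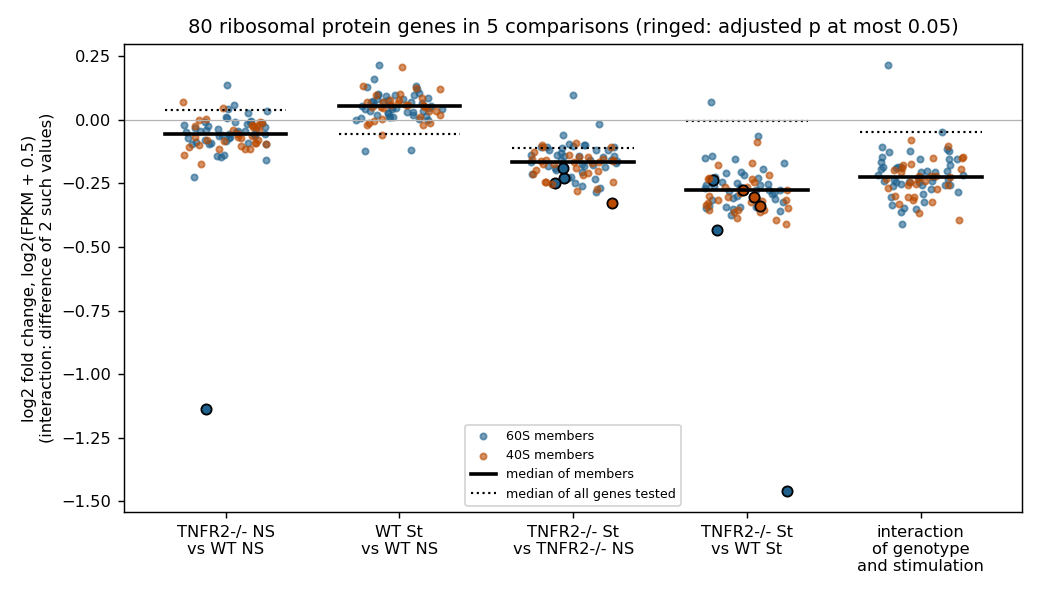
Log2 fold change (y axis, on log2(FPKM + 0.5); for the interaction, the difference of 2 fold changes) of the 80 tested members in 5 comparisons (x axis), blue for 60S and orange for 40S, ringed where called. Solid lines are the members' medians and dotted lines the medians of all 18081 genes tested; the members' median lies below the dotted line in all comparisons except WT St vs WT NS, where it lies above it.

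Stimulation of TNFR2-/- cells lowered ribosomal protein transcripts by a small amount, close to the shift of the whole transcriptome. The log2 fold changes of TNFR2-/- St against TNFR2-/- NS were negative in 79 of 80 members, with a median of -0.17 against -0.11 and 66.3% negative over all genes. Called lower were 4 members, Rpl10, Rpl22, Rpl27 and Rps21, and called higher 0, against 16.3% and 9.62% of all genes. Scaling by median-of-ratios factors moved the median of all genes to -0.02 and that of the members to -0.05, with 65 negative and 0 called.

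Rpl10, an X-linked gene whose protein completes the 60S subunit near the P site, was at 82.1, 89.2 and 75.8 FPKM in TNFR2-/- NS and at 71.3, 72.0 and 67.1 FPKM in St, a difference of -0.23 ± 0.07 (limma adjusted p = 0.0349). Rpl27, another 60S protein, went from 444.5, 499.3 and 416 FPKM to 390.2, 393 and 358 FPKM (-0.25 ± 0.07, limma adjusted p = 0.0279). Rpl22, a non-essential protein of the 60S subunit, went from 79.7, 85.5 and 75.95 FPKM to 72.4, 69.98 and 68.7 FPKM (-0.19 ± 0.06, limma adjusted p = 0.0347). These 3 were lower in every St library than in any NS library of that genotype. Rps21, one of the TOP starts printed above and a small 40S protein, went from 42.04, 46.9 and 36.7 FPKM to 32.9, 37.6 and 29.3 FPKM (-0.33 ± 0.10, limma adjusted p = 0.0384), with the groups overlapping between cultures but each culture lower. Groups failed to overlap, with St lower, in 6 members, against 24.7% of all genes.

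NS and St libraries of a genotype with the same number varied together, and with the culture as a block many more members passed. Called lower were then 51 of 80 members and called higher 0, against 31.7% and 13.4% of all genes. The smallest p-values belonged to Rps15 (-0.27 ± 0.03, limma adjusted p = 5.93e-04) and Rps21 (-0.33 ± 0.04, limma adjusted p = 6.74e-04). Rps14 of the 40S platform (-0.28 ± 0.04, limma adjusted p = 0.00142) and Rpl37a of the 60S subunit (-0.28 ± 0.04, limma adjusted p = 0.0015) followed. Over the single cultures, the median change was -0.08 in culture 2 (70 of 80 members lower), -0.27 in culture 4 (80 lower) and -0.17 in culture 5 (78 lower), against -0.10, -0.10 and -0.12 over all genes. Culture 2 thus changed no more than the median gene, and culture 4 most. Without the block, the count of calls rose from 4 to 20 when TNFR2-/- NS replicate 5 was left out. It fell to 0 without TNFR2-/- NS replicate 2 or 4 or TNFR2-/- St replicate 5, and to 2 without WT St replicate 2 or 4 or TNFR2-/- St replicate 2. With the block and without culture 5, 27 members were called lower, where 6002 of all genes were called in either direction.

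In WT cells the same stimulation left ribosomal protein transcripts at or slightly above their level before. The log2 fold changes of WT St against WT NS were positive in 70 of 80 members, with a median of 0.05, while over all genes the median was -0.05 and 61.3% were negative. Called were 0 members in either direction, against 7.70% of all genes higher and 8.36% lower, and 0 members had an unadjusted p below 0.05. The largest changes belonged to paralogs and were not called: Rpl22l1 (0.21 ± 0.10, limma adjusted p = 0.215), Rps27l (0.21 ± 0.12, limma adjusted p = 0.315) and, with the second smallest p, Rpl7l1 (0.11 ± 0.05, limma adjusted p = 0.241). Groups did not overlap, with St higher, in 12 members, among them Rplp2, Rpl39 and Rps26, and the share over all genes was 13.7%. With the culture as a block 1 member was called higher, Rps27l (limma adjusted p = 0.0289), and 0 lower, against 11.4% and 20.2% of all genes. The median change was 0.10, 0.06 and 0.02 in cultures 2, 3 and 4, with 73, 72 and 49 of 80 members higher.

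The difference between these responses was negative in 79 of 80 members, with a median of -0.22 against -0.05 and 59.6% negative over all genes. Called were 0 members, against 0.00553% of all genes higher (1 gene) and 0% lower, and the lowest limma adjusted p among members was 0.559, that of Rpl22l1 (-0.41 ± 0.15). Rps21 (-0.39 ± 0.14) and Rpl36, a small 60S protein (-0.36 ± 0.14), came next, both with a limma adjusted p of 0.563. An unadjusted p below 0.05 was found for 11 members and 7.95% of all genes. With the culture as a block it was found for 68 members and 21.3% of all genes, and 0 members were called, with a lowest limma adjusted p of 0.0968. A difference in response was therefore not shown for any single member. The direction also held without culture 5 (78 negative, 0 called).

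Without stimulation, ribosomal protein transcripts differed little between the genotypes. The log2 fold changes of TNFR2-/- NS against WT NS had a median of -0.05 (0.04 over all genes) and 70 of 80 were negative. This small shift rested on TNFR2-/- NS replicate 5, without which the median was 0.02 and 25 were negative. Called lower was 1 member, Rpl34, and called higher 0, against 4.75% and 6.11% of all genes. Rpl34 and Rps6 were the 2 members whose groups did not overlap, against 14.3% of all genes lower without overlap. For Rps6 the WT NS libraries were at 101, 102 and 111 FPKM and those of TNFR2-/- NS at 96.2, 101 and 88.2 FPKM (-0.14 ± 0.08, limma adjusted p = 0.286), so that its groups nearly touched. The comparisons above share libraries: TNFR2-/- St enters 3 of them.

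Rpl34, a small protein of the 60S subunit, stood apart from all other members. It had 6508, 6525 and 7358 read pairs in WT NS, 7220, 7473 and 7574 in WT St, 3094, 3787 and 2784 in TNFR2-/- NS, and 2630, 2927 and 2348 in TNFR2-/- St. Every library labelled TNFR2-/- was below every WT library, with and without cytokines. The difference was -1.14 ± 0.11 in NS and -1.46 ± 0.11 in St on the log2 scale (limma adjusted p = 0.00165 and 2.00e-04), or 2.20-fold and 2.75-fold lower. It was the only member at least 1.5-fold changed among those called, in either comparison, a call made for 1.28% (NS) and 0.614% (St) of all genes lower. Stimulation changed it by 0.07 ± 0.11 in WT and -0.25 ± 0.11 in TNFR2-/- (limma adjusted p = 0.743 and 0.113).

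A processed copy of the gene moved the other way. Rpl34-ps1, named here after its values were seen, lies on chr6:71124610-71124963 (plus strand, GRCm38), whereas Rpl34 lies on chr3:130726831-130730398 (minus strand). It had 66, 55 and 62 read pairs in WT NS, 83, 87 and 65 in WT St, 803, 911 and 751 in TNFR2-/- NS and 762, 711 and 648 in TNFR2-/- St. It was higher in TNFR2-/- by 2.05 ± 0.09 in NS and 1.81 ± 0.09 in St (limma adjusted p = 3.90e-06 and 9.23e-06). These differences are on the log2 scale of the fit, where a constant is added to FPKM. That constant makes them understate the change of a gene with low FPKM, and the read pairs above differ by more. The share of Rpl34-ps1 in the summed read pairs of both genes was 0.836% to 1.15% in WT and 19.4% to 22.5% in TNFR2-/-. The sum itself was 6574 to 7639 read pairs in WT and 2996 to 4698 in TNFR2-/-. How read pairs that match both genes were counted was not tested, so the sum may not hold all of them.

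The reference coding sequences of both genes (GENCODE M21) differ at 2 of 354 bases, T132C and C318G, with the base of Rpl34 given first and positions counted from the A of its ATG. Only read pairs that cover these positions, or the parts of the transcript that the copy lacks, can be told apart by their letters. Shown are coding bases 100 to 340 of each, the stretch that holds both differences, with the differing bases in capitals.
Rpl34: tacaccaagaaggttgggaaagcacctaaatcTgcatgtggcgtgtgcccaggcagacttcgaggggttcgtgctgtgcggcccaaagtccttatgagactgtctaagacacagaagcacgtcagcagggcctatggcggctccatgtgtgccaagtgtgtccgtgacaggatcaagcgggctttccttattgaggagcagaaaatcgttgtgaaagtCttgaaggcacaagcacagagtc
Rpl34-ps1: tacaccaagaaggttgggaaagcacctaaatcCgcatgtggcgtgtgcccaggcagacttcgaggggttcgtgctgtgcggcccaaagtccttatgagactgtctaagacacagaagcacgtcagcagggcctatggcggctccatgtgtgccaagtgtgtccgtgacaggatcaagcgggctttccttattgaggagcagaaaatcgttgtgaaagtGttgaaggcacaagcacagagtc

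**Figure D3:**
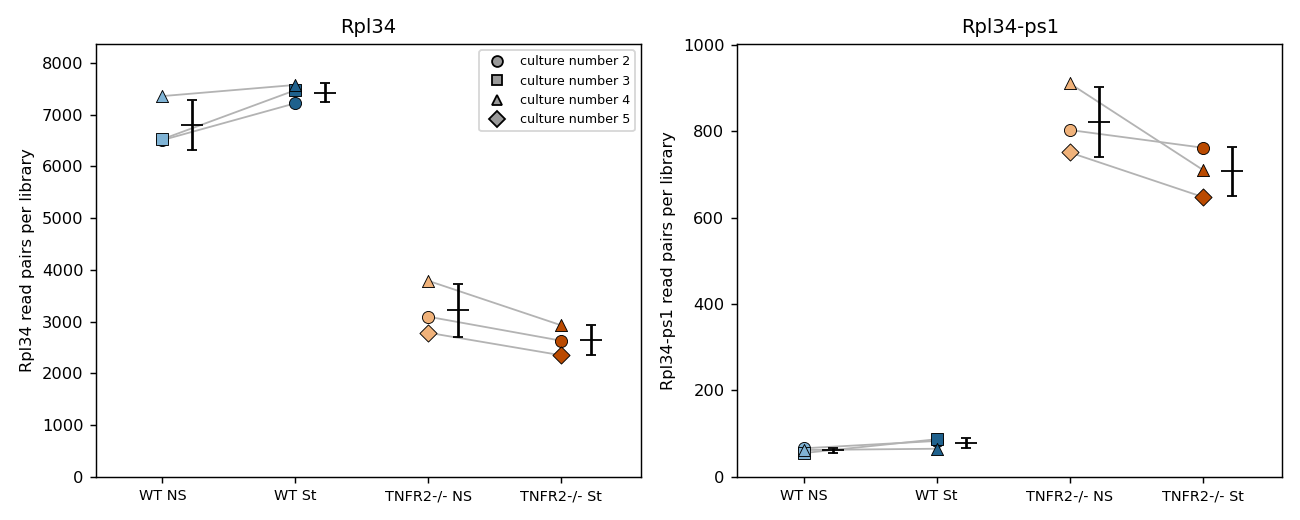
Read pairs (y axes, from 0) of Rpl34 (left) and of its processed copy Rpl34-ps1 (right) in each library by group (x axes), with culture lines and mean ± SD (n = 3). Rpl34 lies at 6508 or above in WT and at 3787 or below in TNFR2-/-, and Rpl34-ps1 at 87 or below in WT and at 648 or above in TNFR2-/-.

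Paralogs replace or accompany a main protein in some ribosomes, and 4 of the 7 in the list were expressed at a testable level. Rpl22l1, the copy of the RNA-binding protein Rpl22, was at 12.3, 14.5 and 14.4 FPKM in WT NS, 15.9, 15.8 and 16.1 FPKM in WT St, 12.5, 15.1 and 12.9 FPKM in TNFR2-/- NS and 13.0, 11.75 and 10.4 FPKM in TNFR2-/- St. Its mean was highest in WT St and lowest in TNFR2-/- St, with no overlap between these groups (-0.43 ± 0.10, limma adjusted p = 0.0426). Relative to Rpl22, it had 6.65 to 7.22 read pairs per 100 in WT NS and 8.14 to 8.22 in WT St, but 6.45 to 7.29 in TNFR2-/- NS and 6.25 to 7.39 in TNFR2-/- St. The ratio thus separated WT St from the 3 other groups.

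Rps27l, a p53-induced copy of Rps27 that differs from it at few residues, was at 71.9, 72.3 and 74.3 FPKM in WT NS and 88.7, 82.7 and 81.04 FPKM in WT St. In TNFR2-/- it was at 71.3, 79.7 and 59.75 FPKM in NS and 71.4, 68.6 and 53.35 FPKM in St. WT St lay above the other groups, and its difference from TNFR2-/- St was -0.39 ± 0.12 (limma adjusted p = 0.0747). Per 100 read pairs of Rps27, it had 26.0 to 28.6 in WT NS, 29.7 to 34.5 in WT St, 28.6 to 30.8 in TNFR2-/- NS and 29.6 to 31.3 in TNFR2-/- St. With 3 libraries a group, an exact permutation test of such a ratio cannot go below p = 0.1, and none was run.

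Rpl7l1, a Rpl7-like protein of pre-60S particles in the nucleolus, and Rps4l, an autosomal copy of X-linked Rps4x, did not follow the others. Rpl7l1 stayed between 170.0 and 199 FPKM in all 12 libraries and differed by -0.06 ± 0.05 between the stimulated genotypes (limma adjusted p = 0.485), where Rpl7 differed by -0.22 ± 0.08 (limma adjusted p = 0.105). Rps4l was at 10.65 to 17.97 FPKM and differed by -0.09 ± 0.17 (limma adjusted p = 0.774).

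**Figure D4:**
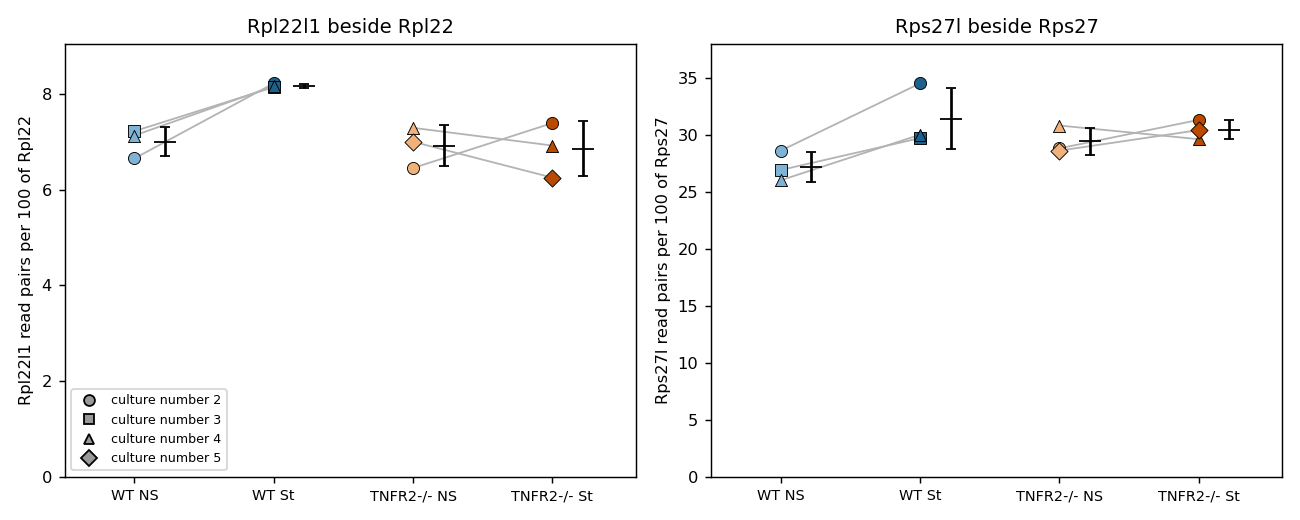
Read pairs of Rpl22l1 per 100 of Rpl22 (left) and of Rps27l per 100 of Rps27 (right), y axes from 0, in each library by group (x axes), with culture lines and mean ± SD (n = 3). For Rpl22l1 the 3 WT St libraries sit at 8.14 to 8.22, above all others, and for Rps27l the WT lines rise from 26.0 to 28.6 up to 29.7 to 34.5.

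Across the 12 libraries the members varied as a block. The correlation of a member's log2 level with the mean of the others had a median of 0.94 over 79 members (all tested but Rpl24), and 0.93 after the group means were removed. This describes libraries that share their total, so each member's level also carries the library's composition. At least 0.9 was reached by 64 members, and only Rpl7l1 (0.02) and Rps4l (0.10) were below 0.5. Rpl8, a 60S protein beside the peptidyl transferase centre, followed the rest closely, with 0.99. Rpl34, with its genotype difference, had 0.75, and 0.87 once group means were removed.

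Genes that make and run the ribosome were read from lists of the same pathway. Core ribosomal proteins whose symbols the rule does not match (such as Rps3a1 and Rpl36al) went with the members: in TNFR2-/- St against WT St 5 of 6 were lower, with a median of -0.26 and 1 called, Rpl36al (-0.33 ± 0.07, limma adjusted p = 0.0321). Translation elongation factors and other TOP mRNAs also had a negative median (-0.22, 20 of 22 lower, 2 called). The called genes were Nme2, a nucleoside diphosphate kinase (-1.22 ± 0.15, limma adjusted p = 0.00864), and Nap1l1, a histone chaperone (-0.24 ± 0.06, limma adjusted p = 0.0404), neither of which elongates a peptide. Host genes of snoRNAs with TOP starts had a median of -0.34 (6 of 7 lower), with Snhg8 and Snhg6 called (-0.37 ± 0.08 and -0.34 ± 0.09, limma adjusted p = 0.0391 and 0.0486). The snoRNP proteins that guide rRNA modification had a median of -0.13 (10 of 11 lower), with Fbl, the rRNA methyltransferase, and Nhp2l1 called (-0.37 ± 0.09 and -0.25 ± 0.05, limma adjusted p = 0.0408 and 0.0278). Background for these counts is the 2.75% of all genes called lower.

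Assembly factors did not show this pattern. In TNFR2-/- St against WT St the 44 factors of the 60S had a median of -0.05 (1 called higher, 0 lower) and the 38 of the small subunit processome 0.01 (1 higher, 0 lower). The 15 genes of rRNA transcription had a median of 0.08 (1 lower), and the 36 initiation factors -0.08 (2 lower). Stimulation raised a few of these factors in both genotypes: Rrp9, a U3 snoRNP protein, rose by 0.77 ± 0.08 in WT and 0.68 ± 0.08 in TNFR2-/- (limma adjusted p = 7.41e-05 and 1.37e-04). Rrp12, an export factor of pre-ribosomes, rose by 0.69 ± 0.11 and 0.78 ± 0.11 (limma adjusted p = 0.00157 and 5.31e-04). Noc4l, listed with the 60S factors although it is known as a partner of Nop14 in 40S assembly, rose by 2.26 ± 0.07 and 2.04 ± 0.07 (limma adjusted p = 6.25e-09 and 1.35e-08). In all, 5 and 8 of the 60S factors rose in WT and TNFR2-/-, and 3 and 5 fell, where 7.70% and 9.62% of all genes rose and 8.36% and 16.3% fell.

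Upstream regulators and p53 genes were also read, beside a median of -0.00 over all genes and 2.70% of all genes called higher and 2.75% lower in TNFR2-/- St against WT St. The 23 genes of mTORC1 signalling and TOP control held 2 called higher and 1 lower: Deptor, an mTOR inhibitor (0.91 ± 0.20, limma adjusted p = 0.0368), Eef2k, the kinase of elongation factor eEF2 (0.50 ± 0.11, limma adjusted p = 0.0388), and Lamtor3, a lysosomal scaffold (-0.78 ± 0.10, limma adjusted p = 0.00864). Of the 12 genes of the MYC network 0 were called, with a median of -0.15. The 14 genes of the p53 response had a median of -0.35, 13 of them lower and 4 called. Mdm2, the ubiquitin ligase of p53, differed by -0.34 ± 0.06, Trp53 by -0.33 ± 0.07 and Zmat3 by -0.42 ± 0.09 (limma adjusted p = 0.0158, 0.0286 and 0.0298). Stimulated against non-stimulated cells, Trp53 itself was higher by 1.16 ± 0.07 (WT) and 1.02 ± 0.07 (TNFR2-/-) (limma adjusted p = 7.78e-07 and 1.85e-06). Genotype differences in these lists were also present without cytokines. In TNFR2-/- NS against WT NS, 5 mTORC1 genes were called higher and 2 lower, where 6.11% and 4.75% of all genes were. The MYC network had 2 called lower. Of the 14 p53 genes 12 were negative (median -0.17) and 3 called lower. Lamtor3 was at 10.96 to 12.85 FPKM in WT NS and 7.35 to 8.88 FPKM in TNFR2-/- NS.

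Mitochondrial ribosomal proteins, which build the separate ribosome of the mitochondrion, gave another picture. In NS cells 73 of 76 were higher in TNFR2-/- than in WT, with a median of 0.20, and 16 were called higher and 0 lower, against 6.11% and 4.75% of all genes. Mrps16 (0.51 ± 0.10) and Mrpl43 (0.30 ± 0.06) were among them (limma adjusted p = 0.0197 and 0.0176). Calls in this comparison depended on the fit. Of all genes 1964 were called here, 80 without WT NS replicate 3 and 8 with only the libraries compared. The 16 calls could thus not all hold in that last fit. Stimulation of TNFR2-/- cells lowered 25 of the 76 and raised 0, with a median of -0.19, among them Mrpl43 (-0.47 ± 0.06, limma adjusted p = 1.74e-04). Over all genes 16.3% were called lower and 9.62% higher, with a median of -0.11. In WT, 1 was called higher and 1 lower, with a median of -0.02. There 7.7% of all genes were called higher and 8.36% lower, with a median of -0.05. Between the stimulated genotypes 0 were called and the median was 0.02, where that of the cytosolic members was -0.28. The groups of genes were not tested against each other.

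**Figure D5:**
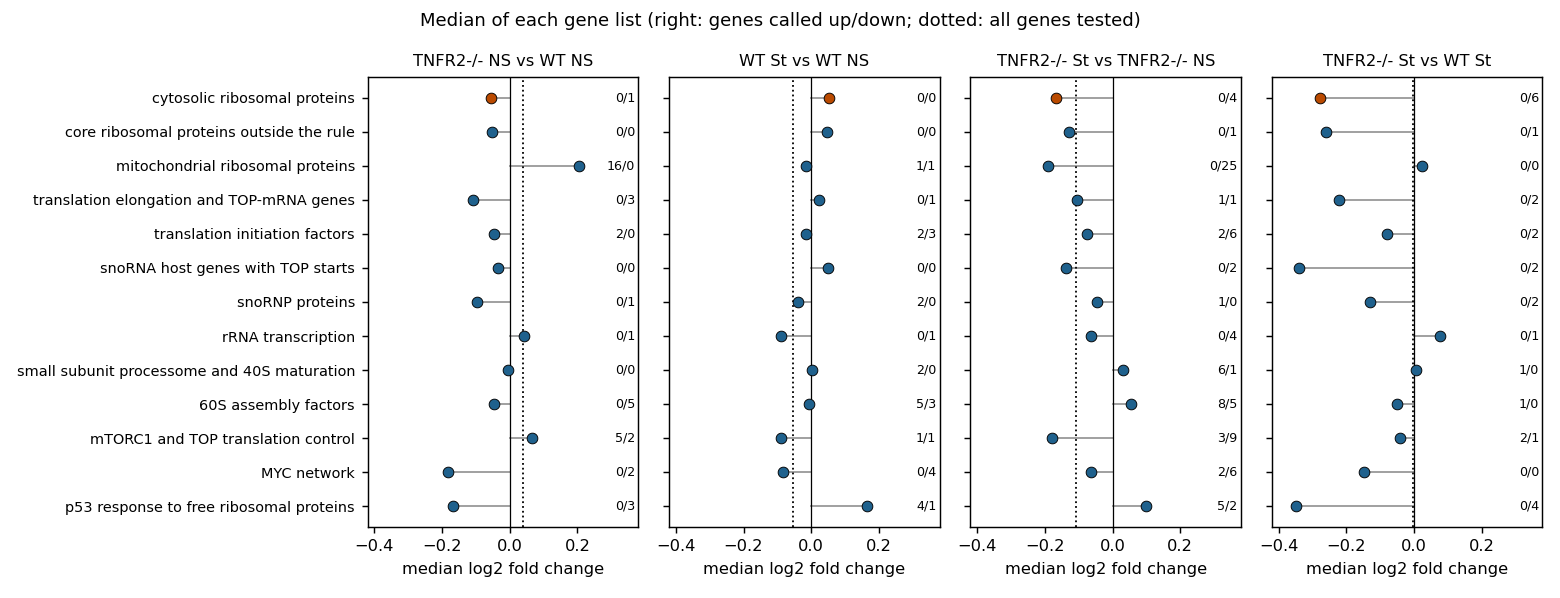
Median log2 fold change (x axes) of 13 gene lists (y axis) in 4 comparisons, with the number of genes called higher/lower at the right of each panel and the median of all genes as a dotted line. In TNFR2-/- St vs WT St the cytosolic ribosomal proteins sit at -0.28 and the mitochondrial ones at 0.02; in TNFR2-/- NS vs WT NS they sit at -0.05 and 0.20.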

How the data were processed

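OPC mRNA of 12 libraries (4 groups of 3) was analysed. Per the labels and the study's methods, the authors trimmed paired-end reads (Trim Galore), used STAR for alignment to GRCm38 and for gene counts of read pairs; the deposited values are FPKM from the EdgeR workflow, in a table for NS and a table for St. The per-gene divisor was the same in both tables, and whole read pairs were recovered for 26636 of 26636 genes (tolerance 0.01 of a pair). The divisors do not follow gene length, so levels between genes are given per kilobase of GENCODE M21 transcripts; 229 entries sharing a symbol were left out. Whether counting used strand is not given in the sources used here.

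Groups came from the sample titles. limma 3.58.1 (R 4.3.3) was fitted to log2(FPKM + 0.5) of 18081 genes (mean over all libraries 0.1 FPKM or more), with 4 group means and a mean-dependent prior, and p-values (two-sided) were adjusted over all genes by Benjamini-Hochberg. A fold change on this scale understates that of low genes. Calls used an adjusted p of at most 0.05; a stricter call also needed 1.5-fold and a mean of 1 FPKM. The fit was tested on simulated data. Libraries of about the same depth (26886878 to 30335265 pairs) limit genes with few pairs, and intervals on counts cover counting error only. Alternatives were other pseudocounts, filters and scalings, voom on recovered pairs, pairwise fits, a replicate block and leaving out libraries; voom called 1262 genes in TNFR2-/- St vs WT St and 985 were called on FPKM.

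Residuals of 10608 genes correlated at 0.49 to 0.778 between NS and St libraries of a genotype with the same number. Between genotypes they correlated at -0.0737 to 0.275 for the same number and at -0.279 to 0.182 for other numbers. The culture block therefore pairs libraries within a genotype only. Named members were, per comparison, the called ones with the smallest p (if none, the 3 with the smallest p), the extremes per length, the paralogs and 11 members with known roles; from the other lists, up to 3 called genes. The members and lists were chosen with earlier results of these data known. A result on an item withheld for evaluation is not reported here.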

Additional observations from a re-analysis of the deposited data

Results flagged for a closer look

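The share of read pairs on ribosomal protein genes moved in opposite directions with stimulation in the genotypes: it rose in 3 of 3 WT cultures (mean change 0.109 percentage points) and was lower after stimulation in 3 of 3 TNFR2-/- cultures (mean change -0.331 points). The difference, TNFR2-/- minus WT, was -0.44 points for all members, -0.25 points for the 60S members and -0.19 points for the 40S members, which are parts of the same sum. The flag itself required all cultures of a genotype to move one way and all of the other genotype the opposite way. An exact two-sided permutation test over the 6 cultures must then give p = 0.1, the smallest value that 3 cultures against 3 allow. It gave this value for each, which adds nothing to the directions, and the design cannot reach the threshold of 0.05. The astrocyte markers, highest in TNFR2-/- culture 5, differed between the genotypes in both conditions, and their part in this difference was not tested.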

How the results depend on the processing

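The members' median kept its sign in each of the 4 comparisons and the interaction under every alternative, except in TNFR2-/- NS vs WT NS (-0.05), where it was 0.02 with the replicate number as a block, without TNFR2-/- NS replicate 5 and without both libraries of TNFR2-/- culture 5. For TNFR2-/- St vs TNFR2-/- NS it moved to -0.0507 with median-of-ratios factors. Leaving out single libraries gave medians of -0.327 to -0.203 (TNFR2-/- St vs WT St), -0.242 to -0.0883 (TNFR2-/- St vs TNFR2-/- NS), 0.0257 to 0.0903 (WT St vs WT NS), -0.304 to -0.145 (interaction) and -0.132 to 0.0204 (TNFR2-/- NS vs WT NS).

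The counts of called members were less stable, and the cause was not tested. In TNFR2-/- St vs WT St (6 lower) they were 1 with no filter on low values, 13 with a mean of at least 1 FPKM, 1 with median-of-ratios factors, 3 with quantile normalization, 1 with only the libraries compared, 2 with no mean-dependent prior, 15 with voom, and 1 without culture 5; leaving out single libraries gave 1 to 26. In TNFR2-/- St vs TNFR2-/- NS (4 lower) they were 1 with no filter, 0 with median-of-ratios factors, 0 with only the libraries compared (4 members at an unadjusted p below 0.05, limma), 2 with no mean-dependent prior, 51 with the culture as a block and 27 with that block and without culture 5; leaving out single libraries gave 0 to 20. With the culture block, 8153 of all genes were called in either direction in TNFR2-/- St vs TNFR2-/- NS, and 6002 without culture 5. In WT St vs WT NS (0 higher) 1 was called higher with only the libraries compared, with the culture block, without culture 5, and with both together. In TNFR2-/- NS vs WT NS (1 lower) 0 were called with only the libraries compared, where 1 member had an unadjusted p below 0.05. Calls of the other gene lists were read from the main fit only. With only the libraries compared, calls over all genes fell from 985 to 67 in TNFR2-/- St vs WT St and from 1964 to 8 in TNFR2-/- NS vs WT NS. The alternatives without culture 5 were chosen after the data had been seen.

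The replicate number as a block over all libraries treats WT and TNFR2-/- cultures of a number as paired. Their residuals correlated at only -0.0737 to 0.275. This block gave 46 members lower in TNFR2-/- St vs WT St (8.05% of all genes), 50 lower in TNFR2-/- St vs TNFR2-/- NS (30% of all genes) and 2 higher in WT St vs WT NS (11% of all genes). The culture block gives no value between genotypes, and a fit to only the libraries compared gives none for the interaction.

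When single libraries were left out, Rpl34 kept its call in 12 of 12 fits of both genotype comparisons; the other called members kept theirs in 9 (Rpl27), 7 (Rpl10), 6 (Rpl22), 5 (Rps15a), 3 (Rps21, Rpl22l1 and Rps27a) or 2 (Rps26 and Rpl6) of 12. Without mitochondrially encoded genes in the denominator the mean share of the members was 3.3% in WT NS, 3.396% in WT St, 3.19% in TNFR2-/- NS and 2.832% in TNFR2-/- St, and with the core proteins outside the rule 3.257%, 3.377%, 3.137% and 2.797%. Outside the fits that left out single libraries, 176 counts, medians and shares stayed close to their reported value and 27 moved. Of the values of single genes, 467 stayed on their side of the threshold, 21 passed it and 48 no longer did. Depth limits only Rpl24 and the 3 members that were not tested.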
